A study of Homo sapiens with 6 samples.

Results

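The thioredoxin-interacting protein gene TXNIP and the arrestin domain containing genes ARRDC1, ARRDC2, ARRDC3 and ARRDC4 were followed through p53 activation in HCT116 cells. They were taken as the rows of the count table whose gene identifiers pair with these symbols, which gave 5 genes of 57905. HCT116 is an established human colorectal carcinoma line with a wild-type p53 response. Cells received the vehicle DMSO (Nut 0h) or Nutlin-3a at 10 µM, which blocks the binding of HDM2 to p53, for 1 h (Nut 1h) or 10 h (Nut 10h). The groups differed in treatment and time and had the same line and genotype, and each had 2 biological replicates, giving 6 RNA-seq libraries. Nothing in the labels ties a replicate to a separate day or culture of the other groups, and the findings concern 1 cell line. The vehicle control carries no time of its own in the labels, so treatment and time in culture cannot be told apart.

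The products of these genes are alpha-arrestins, adaptor proteins with an arrestin fold. Most carry short PPxY motifs that recruit ubiquitin ligases of the NEDD4 family to membrane cargo, which is then internalized or sorted. TXNIP binds thioredoxin and restrains glucose uptake through the glucose transporters GLUT1 and GLUT4. TXNIP and ARRDC4 are known targets of the glucose-sensing factors MondoA and ChREBP, which with their partner MLX bind carbohydrate response elements, pairs of E-box-like sequences. ARRDC1 recruits TSG101 to the plasma membrane for the budding of small vesicles, and ARRDC3 takes part in the trafficking of membrane proteins such as integrin beta-4.

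After 10 h of Nutlin-3a, ARRDC1 was 1.56-fold and ARRDC4 was 1.91-fold higher than in the vehicle control, whereas ARRDC2 and ARRDC3 did not pass the test. After 1 h, ARRDC1 was 2.87-fold lower and ARRDC4 was 1.99-fold higher. Both kept their call when the GC content of the transcripts entered the fit, but their log2 changes shrank from -1.52 to -0.48 and from 0.99 to 0.46. ARRDC2 and ARRDC3 passed the test at 1 h in opposite directions, and both lost that call in the fit with GC content. TXNIP had 10 counts in all over the 6 libraries, and whether its reads were lost in the counting was not tested.

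The libraries held between 26068076 counts (Nut 1h replicate 2) and 35473485 counts (Nut 0h replicate 1) assigned to genes. Mitochondrial genes took 4.99% and 6.18% of the counts at Nut 0h, 8.44% and 8.15% after 1 h, and 6.45% and 7.06% after 10 h. MDM2, a p53 target that codes for its inhibitor, was higher on the log2 scale by 2.19 after 1 h (SE 0.13) and by 3.75 after 10 h (SE 0.13), with adjusted p = 3.55e-08 and 4.51e-10 in edgeR's quasi-likelihood test. CDKN1A, the cell cycle inhibitor p21, changed by 0.05 at Nut 1h (SE 0.10, adjusted p = 0.704) and by 3.84 at Nut 10h (SE 0.11, adjusted p = 1.03e-10). With GC content in the fit, CDKN1A was called higher at Nut 1h (0.69, adjusted p = 2.27e-06) and MDM2 stood at 1.46 (adjusted p = 1.69e-09). Of 7 epithelial markers, 6 were present in every group, with CDX2 the lowest at 474 normalized counts at Nut 1h, and VIL1 was at or near 0, with group means of 5.30, 0 and 1.40. Of 10 markers of fibroblasts, blood and endothelium, COL1A1 stood at 1364, 796 and 1218 normalized counts in the order of time, DCN was at 0, PECAM1 had no row by that symbol, and the other 7 had group means of 33.7 or less.

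In GRCh37 coordinates, TXNIP lies on the forward strand of chromosome 1 (chr1:145438490-145442635) and ARRDC1 on the forward strand of chromosome 9 (chr9:140500137-140509812). ARRDC2 is on the forward strand of chromosome 19 (chr19:18111941-18124911), ARRDC3 on the reverse strand of chromosome 5 (chr5:90664448-90679134) and ARRDC4 on the forward strand of chromosome 15 (chr15:98503933-98517063). All 5 are annotated as protein coding. Their longest transcripts differ in base composition. ARRDC1 (62.8% GC) and ARRDC2 (60.2% GC) are GC-rich, while TXNIP (43.7%), ARRDC4 (43.4%) and ARRDC3 (37.2%) are AT-rich. The exons of ARRDC1 share 35 bases with the antisense gene ARRDC1-AS1 and 183 bases with a second noncoding gene on the same strand, those of ARRDC2 share 442 bases with an antisense transcript, and those of ARRDC3 share 145 bases with ARRDC3-AS1. The strand setting of the counting was not given in the sources used here, so reads in these stretches may count for either gene. ARRDC1-AS1 itself had between 121 and 270 counts per library, against 737 to 4623 for ARRDC1.

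MondoA and ChREBP are known to act through pairs of E-box-like sequences. The promoters below, of TXNIP, ARRDC4 and ARRDC1, are shown with single matches to such a sequence, CACGNG, which alone are not these elements. Each is the 250 bases before a RefSeq start, 5′ to 3′ in the gene's direction, and capitals mark matches to CACGNG on either strand. TXNIP is chr1:145438240-145438489, ARRDC4 is chr15:98503683-98503932 and ARRDC1 is chr9:140499888-140500137 (all GRCh37, forward strand).

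TXNIP: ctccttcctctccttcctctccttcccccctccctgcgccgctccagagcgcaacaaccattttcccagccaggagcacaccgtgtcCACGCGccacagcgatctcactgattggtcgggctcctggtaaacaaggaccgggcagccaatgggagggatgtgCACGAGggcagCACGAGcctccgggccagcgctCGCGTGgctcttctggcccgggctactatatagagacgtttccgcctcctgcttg

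ARRDC4: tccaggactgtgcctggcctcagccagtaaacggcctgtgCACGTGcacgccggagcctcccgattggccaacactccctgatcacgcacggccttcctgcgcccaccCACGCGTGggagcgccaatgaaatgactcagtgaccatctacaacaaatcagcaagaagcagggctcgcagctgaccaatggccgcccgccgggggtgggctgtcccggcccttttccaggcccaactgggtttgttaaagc

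ARRDC1: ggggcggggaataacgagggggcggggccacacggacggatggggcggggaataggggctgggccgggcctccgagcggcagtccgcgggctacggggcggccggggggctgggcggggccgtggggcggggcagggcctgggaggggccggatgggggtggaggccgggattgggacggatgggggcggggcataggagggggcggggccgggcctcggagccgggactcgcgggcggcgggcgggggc

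The TXNIP promoter shown holds 4 matches to CACGNG, while a second RefSeq window of the gene (chr1:145439075-145439374) holds none. In the first, a pair of them forms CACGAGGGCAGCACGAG, from 88 to 72 bases before the start (chr1:145438402-145438418). Such a pair, CACGNG repeated on 1 strand with 5 bases between, was found in 20 of 35116 RefSeq promoter windows of 300 bases, or 0.057%. The ARRDC4 promoter holds the E-box CACGTG 210 to 205 bases before the start (chr15:98503723-98503728), a sequence found in 7.26% of the windows, and an overlapping pair of CACGNG matches 142 to 135 bases before it. Single CACGNG matches are common, being found in 30.5% of the windows. ARRDC2 had 3 of them in 1 of its 2 RefSeq promoters, ARRDC3 had 1 in 1 of its 2, and ARRDC1 had none in a window of 81.3% GC. None of the members' windows held the decamer that makes up p53 response elements, found in 6.63% of all windows. These matches describe letters in the windows, and whether a factor binds there was not analysed here.

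TXNIP, which binds thioredoxin and restrains glucose uptake, had 4 and 1 counts at Nut 0h, 0 and 0 after 1 h, and 2 and 3 after 10 h. These 10 counts are the total over the 6 libraries, and the gene did not pass the low-count filter of edgeR (filterByExpr). At Nut 1h, a count of 0 allows up to 0.0945 and 0.115 CPM (counts per 10 to the power of 6 counts) in replicates 1 and 2, taking 3 counts of the library total as the limit for counting error only. Without that filter, TXNIP passed the test in none of the 3 comparisons (adjusted p = 0.203, 1 and 0.205 for Nut 1h, Nut 10h and the difference between them), and no fold change is given. Of the 3408 stretches of 32 bases in the exons of TXNIP, 100% occur once in the GRCh37 primary assembly. The patch scaffolds of GRCh37.p13, the release to which the authors aligned, were not searched. Only protein-coding genes were sought near TXNIP. Of the 4 found within 50 kb, POLR3GL had between 459 and 804 counts per library, LIX1L between 676 and 888 and ANKRD34A between 41 and 104, and HFE2 was at 0 in all 6 libraries. The deposited table lists TXNIP under an identifier that the annotation no longer uses (ENSG00000117289), and it was matched by symbol. Whether reads of TXNIP were lost in the counting was not tested.

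ARRDC1, the adaptor of vesicle budding, had 2814 and 2500 normalized counts in the Nut 0h replicates, 923 and 928 after 1 h, and 4470 and 3819 after 10 h. Normalized counts are counts scaled to a common library size by the TMM method. The 3 groups did not overlap. Both Nut 1h libraries were far below the controls and both Nut 10h libraries above them. Relative to Nut 0h (2657 ± 222, SD, n = 2), ARRDC1 fell by 1.52 on the log2 scale at Nut 1h (925 ± 3.19; SE 0.11, adjusted p = 1.3e-07 in edgeR's quasi-likelihood test) and rose by 0.64 at Nut 10h (4144 ± 460; SE 0.10, adjusted p = 0.000307). It differed by 2.16 on the log2 scale between Nut 10h and Nut 1h (SE 0.11, adjusted p = 1.65e-09).

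ARRDC4, the member closest to TXNIP in its regulation by glucose, had 168 and 172 normalized counts at Nut 0h. It had 327 and 350 after 1 h, and 329 and 320 after 10 h. Every treated library was above both controls, and the Nut 1h and Nut 10h libraries overlapped. ARRDC4 rose by 0.99 on the log2 scale at Nut 1h (SE 0.13, adjusted p = 1.14e-05) and by 0.93 at Nut 10h (SE 0.13, adjusted p = 7.27e-05, edgeR's quasi-likelihood test). The means were 170 ± 2.62, 338 ± 16.1 and 324 ± 6.08 (SD, n = 2) in the order of time. Between the treated groups, the difference of -0.06 did not pass the test (SE 0.12, adjusted p = 0.674).

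ARRDC2 had 1572 and 1308 normalized counts at Nut 0h, 832 and 933 after 1 h, and 1654 and 1407 after 10 h. The Nut 1h libraries were below all the others, and those of Nut 0h and Nut 10h overlapped. It fell by 0.71 on the log2 scale at Nut 1h (SE 0.12, adjusted p = 0.000133) and stood at 0.09 at Nut 10h (SE 0.12, adjusted p = 0.623, edgeR's quasi-likelihood test). ARRDC3, an adaptor in receptor and integrin trafficking, had the opposite profile, with 560 and 785 normalized counts at Nut 0h, 1150 and 1099 after 1 h, and 545 and 695 after 10 h. Its Nut 1h libraries were above all the others, and its controls differed between themselves by more, relative to their mean, than those of any other tested member. It rose by 0.74 on the log2 scale at Nut 1h (SE 0.15, adjusted p = 0.000554), and at Nut 10h the change was -0.12 (SE 0.15, adjusted p = 0.613). Between Nut 10h and Nut 1h, the difference was 0.80 for ARRDC2 (SE 0.12, adjusted p = 4.44e-05) and -0.86 for ARRDC3 (SE 0.15, adjusted p = 0.000162).

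**Figure D1:**
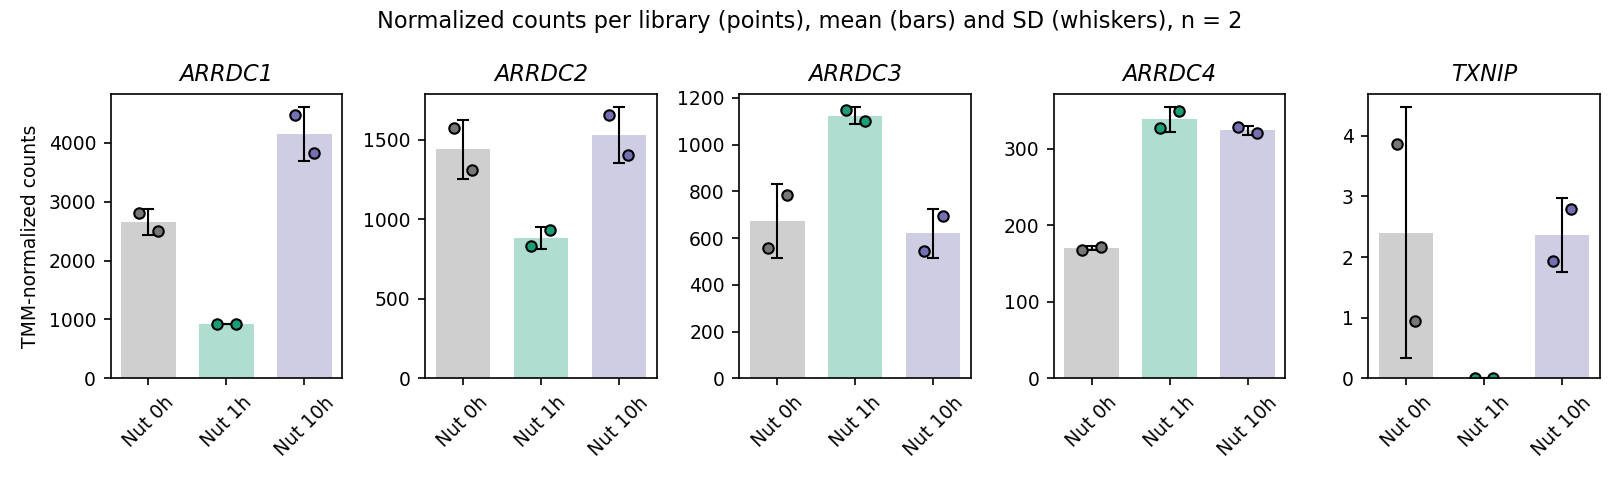
Normalized counts (vertical axes, TMM-scaled, starting at 0) of each gene in Nut 0h, Nut 1h and Nut 10h, with a point for each library, bars for the group mean and whiskers for the SD of 2 replicates. ARRDC1 was lowest at Nut 1h (923 and 928) and highest at Nut 10h, ARRDC4 was higher in all treated libraries, and TXNIP stayed at 4 counts or fewer.

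Of the 4 members tested, 4 were called at Nut 1h (2 higher, 2 lower), where 66.9% of the 16565 tested genes were called. At Nut 10h, 2 of 4 were called, both higher, where 29.0% of the tested genes were called (14.1% higher, 14.9% lower). Between Nut 10h and Nut 1h, 3 of 4 were called (2 higher, 1 lower), against 67.9% of the tested genes (34.2% higher, 33.7% lower). The share of members called at Nut 1h and between the treated groups therefore stands against a background in which most genes were called. The median log2 fold change of the 4 members was 0.02 in the first comparison and 0.37 in the second, beside 0.05 and 0.00017 over all tested genes. The 3 comparisons share their libraries, and their values are given side by side for that reason.

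The changes at Nut 1h followed the GC content of the transcripts across all genes. The median log2 fold change at Nut 1h went from 0.78 among the 2316 genes with 35 to 40% GC to -1.03 among the 1804 genes with 60 to 65% GC. At Nut 10h, the same medians were 0.03 and -0.06. At Nut 1h, ARRDC3 (0.74) lay near the median of its bin, and ARRDC2 (-0.71, at 60.2% GC) lay between the medians of the bins below and above 60% (-0.65 and -1.03). ARRDC1 (-1.52) lay below the median for its composition, and ARRDC4 (0.99) lay above the 0.51 of the genes with 40 to 45% GC. The source of the trend was not tested.

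**Figure D2:**
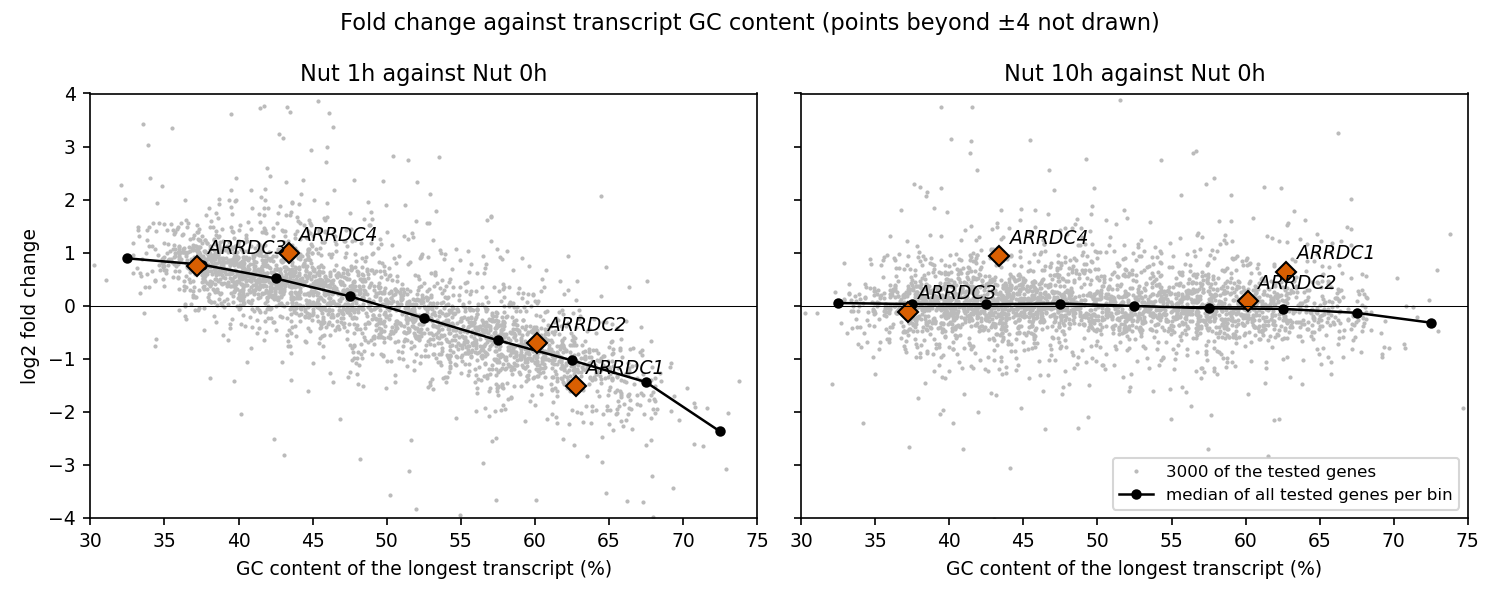
Log2 fold change (vertical axis) against the GC content of the longest transcript in percent (horizontal axis) at Nut 1h (left) and Nut 10h (right), with grey points for 3000 of the tested genes, a black line for the median per bin of 5 percentage points and diamonds for the 4 tested members. The line falls from 0.78 to -1.03 between the bins of ARRDC3 and ARRDC1 at Nut 1h and stays between 0.04 and -0.06 there at Nut 10h.

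When each library received an offset that follows GC content smoothly, ARRDC1 still fell by 0.48 on the log2 scale at Nut 1h (SE 0.07, adjusted p = 3.16e-05, edgeR's quasi-likelihood test with offset). Its GC-adjusted counts were 2061 and 2061 at Nut 0h, 1518 and 1444 after 1 h, and 3292 and 3255 after 10 h. The 3 groups kept their order without overlap, and the rise at Nut 10h was 0.67 (SE 0.06, adjusted p = 2.95e-07). ARRDC4 had GC-adjusted counts of 194 and 188, 252 and 275, and 385 and 347 in the same order. Its libraries then formed steps without overlap, with 0.46 at Nut 1h (SE 0.12, adjusted p = 0.00473) and 0.94 at Nut 10h (SE 0.12, adjusted p = 8.28e-06). The difference between Nut 10h and Nut 1h, which was not called without the offset, was then 0.47 (SE 0.11, adjusted p = 0.00151).

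ARRDC2 and ARRDC3 did not keep their changes. With the offset, ARRDC2 had GC-adjusted counts of 1242 and 1126 at Nut 0h, 1232 and 1320 after 1 h, and 1290 and 1227 after 10 h. Its difference at Nut 1h turned to 0.11 (SE 0.08, adjusted p = 0.289). ARRDC3 had 704 and 911, 754 and 761, and 704 and 788, and its difference at Nut 1h turned to -0.10 (SE 0.10, adjusted p = 0.475). The groups of both genes overlapped at Nut 1h against Nut 0h. In this fit, 2 of the 4 members were called at Nut 1h, beside 46.3% of all tested genes (19.0% higher, 27.3% lower), and 2 of 4 at Nut 10h, beside 39.3% (18.8% higher, 20.5% lower). Between the treated groups, 2 of 4 were called, both higher, beside 58.5% (32.6% higher, 25.9% lower). Without the offset, the shares higher and lower at Nut 1h were 34.5% and 32.3%.

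**Figure D3:**
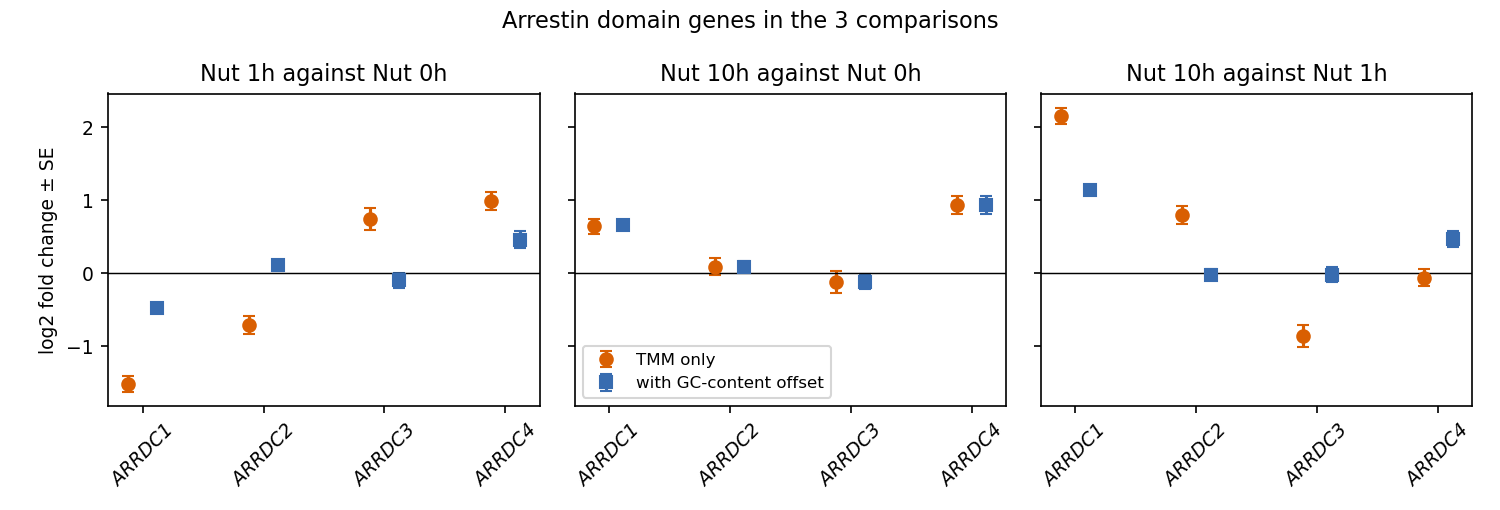
Log2 fold changes of the 4 tested members (vertical axis, bars are SE, 2 libraries per group) in the 3 comparisons, from the fit with TMM only (circles) and with the GC-content offset (squares). At Nut 10h against Nut 0h the 2 fits nearly coincide for each gene, whereas at Nut 1h ARRDC2 goes from -0.71 to 0.11 and ARRDC3 from 0.74 to -0.10.

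Levels were compared between the genes per length of their exons, as RPKM (reads scaled to exon length in kb and to library size). At Nut 0h, ARRDC1 stood at 21.2 ± 1.78 RPKM, ARRDC2 at 9.41 ± 1.22, ARRDC3 at 4.09 ± 0.969, ARRDC4 at 1.27 ± 0.0196 and TXNIP at 0.0202 ± 0.0174 (SD, n = 2). The place of TXNIP carries the doubt about its counting, and its exon length is that of the gene matched by symbol. The libraries of neighbours in this order did not overlap. At Nut 10h, the order was the same, with 33.1 ± 3.68, 10.0 ± 1.14, 3.77 ± 0.644, 2.42 ± 0.0453 and 0.0199 ± 0.00511 RPKM, and again without overlap between neighbours. At Nut 1h, ARRDC1 stood at 7.40 ± 0.0255, ARRDC3 at 6.83 ± 0.219, ARRDC2 at 5.76 ± 0.466 and ARRDC4 at 2.52 ± 0.12 RPKM, and TXNIP was at 0. ARRDC3 thus stood above ARRDC2 there. In the GC-adjusted counts at Nut 1h, which are not scaled to length, ARRDC2 (1232 and 1320) was above ARRDC3 (754 and 761). The distance between ARRDC1 and ARRDC4 spanned 16.8-fold at Nut 0h, 2.93-fold at Nut 1h and 13.7-fold at Nut 10h, on values that carry the GC trend above. GC-adjusted counts at Nut 1h were 1518 and 1444 for ARRDC1, and 252 and 275 for ARRDC4.

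Over the 6 libraries, the genes whose centred log2 CPM followed a member most closely were sought among tested genes that averaged 100 normalized counts or more. For ARRDC1 they were POLL, PRICKLE3 and TFEB, with root mean square differences from 0.0628 to 0.0729. For ARRDC4 they were MT1E (0.0657), TCAIM and ZNF440 (0.0813 each), and MT1E differed from Nut 0h by 0.99 at Nut 1h and 0.93 at Nut 10h on the log2 scale. For ARRDC2 they were HLA-C (0.0179), RAB25 and DEF6, and for ARRDC3 they were RANBP17 (0.0372), DICER1 and LINC00969. These likenesses describe 6 libraries in 3 groups that include the GC trend at Nut 1h, whose part in them was not tested.

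Among the factors that act on the carbohydrate response elements, MLXIPL (ChREBP), MLX and MLXIP (MondoA) were all called lower at Nut 1h, with -0.81, -0.33 and -0.26 on the log2 scale (SE 0.10, 0.09 and 0.09; adjusted p = 1.11e-05, 0.00707 and 0.0231, edgeR's quasi-likelihood test), where 32.3% of all tested genes were called lower. With the GC-content offset, MLXIPL turned to 0.28 (adjusted p = 0.0227) and MLXIP to 0.38 (adjusted p = 0.00127), and MLX stayed lower at -0.20. In that fit, 19.0% of all tested genes were called higher and 27.3% lower at Nut 1h. At Nut 10h, where 29.0% of the tested genes were called, 1 of the 3 was called, MLXIPL, with 1970 and 1969 normalized counts at Nut 0h, against 2674 and 2448 at Nut 10h. This was a rise of 0.38 (SE 0.10, adjusted p = 0.0115, or 0.0505 without Nut 0h replicate 1). The calls of MLX and MLXIP at Nut 1h rested on single libraries. That of MLX was lost without Nut 1h replicate 1 (-0.23, adjusted p = 0.154) and that of MLXIP without Nut 0h replicate 2, Nut 1h replicate 1 or Nut 1h replicate 2 (values from -0.29 to -0.21). MLXIP was chosen for mention after its values were seen.

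The thioredoxin system, whose thioredoxin TXNIP binds, had 10 tested members. At Nut 1h, 4 were called higher and 4 lower, and with the offset 1 higher and 3 lower, beside 66.9% and 46.3% of all tested genes called in either direction. PRDX2, a peroxiredoxin that takes its electrons from thioredoxin, fell by 1.04 on the log2 scale (SE 0.10, adjusted p = 9.68e-07), and stood at -0.49 with the offset. TXNRD2, the mitochondrial thioredoxin reductase, fell by 0.91 (SE 0.12, adjusted p = 1.29e-05) and turned to 0.12 with the offset (adjusted p = 0.261). TXN, the cytosolic thioredoxin that TXNIP binds, went the other way, from -0.06 (adjusted p = 0.552) to -0.93 with the offset (adjusted p = 9.92e-08), and was named after its values were seen. At Nut 10h, 0 of the 10 were called by edgeR's quasi-likelihood test, and their median log2 fold change was -0.04. At an unadjusted p of at most 0.05 there was 1 of them, lower. DESeq2 and limma-voom also called 0 in either direction, and the fit with the offset called 0 higher and 2 lower. Over all tested genes, 29.0% were called at Nut 10h, and 39.3% with the offset.

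The ubiquitin ligases of the NEDD4 family, which alpha-arrestins recruit, were listed together with the adaptors NDFIP1 and NDFIP2, which are not ligases. This list had 11 tested genes. At Nut 1h, 6 were called higher and 1 lower, but with the offset 0 were higher (also 0 at an unadjusted p of at most 0.05) and 3 lower. Over all tested genes, 34.5% were higher and 32.3% lower without the offset, and 19.0% and 27.3% with it. DESeq2 and limma-voom, without the offset, gave 6 higher and 1 lower. WWP2 was the one called lower without the offset, with -0.75 on the log2 scale (SE 0.10, adjusted p = 1.42e-05), and with the offset it stood at -0.15 (adjusted p = 0.0789). At Nut 10h, 2 were higher, 1 was lower and 8 did not pass, against 14.1% higher and 14.9% lower over all tested genes. HECW1 had 137 and 109 normalized counts at Nut 0h, against 241 and 227 at Nut 10h, a rise of 0.93 (SE 0.16, adjusted p = 0.000751). WWP1, a ligase known to bind alpha-arrestins, rose by 0.57 (SE 0.09, adjusted p = 0.000363), and NEDD4 fell by 0.63 (SE 0.12, adjusted p = 0.00093), both named after their values were seen. With the offset these were 0.88, 0.57 and -0.63.

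Of 6 tested cargo proteins, 1 was called higher and 3 lower at Nut 1h, and 3 were called higher and 0 lower at Nut 10h. With the offset at Nut 1h, edgeR called 0 higher (also 0 at an unadjusted p of at most 0.05) and 2 lower. The background was 66.9% of tested genes called at Nut 1h (46.3% with the offset), and 14.1% higher and 14.9% lower at Nut 10h. With the offset at Nut 10h it was 18.8% higher and 20.5% lower. DESeq2 called 1 higher and 2 lower at Nut 1h, and limma-voom 1 higher and 3 lower. In the later comparison, DESeq2 called 3 higher and 0 lower and limma-voom called 2 higher and 0 lower, 1 was lower at an unadjusted p of at most 0.05 in edgeR, and the fit with the offset called 3 higher and 1 lower. ITGB4, the integrin beta-4 whose trafficking involves ARRDC3, had 37833 and 35111 normalized counts at Nut 0h, 12046 and 12317 after 1 h, and 52389 and 46225 after 10 h. As with ARRDC1, its Nut 1h libraries were lowest and its Nut 10h libraries highest. It fell by 1.58 on the log2 scale at Nut 1h (SE 0.10, adjusted p = 6.75e-08; -0.46 with the offset) and rose by 0.43 at Nut 10h (SE 0.10, adjusted p = 0.00417). SLC2A1 (GLUT1), the glucose transporter that TXNIP restrains, had 8625 and 8254 normalized counts at Nut 0h, 4211 and 4307 after 1 h, and 14359 and 13696 after 10 h. It fell by 0.99 at Nut 1h (SE 0.09, adjusted p = 6.93e-07; -0.72 with the offset) and rose by 0.73 at Nut 10h (SE 0.09, adjusted p = 2.62e-05; 0.74 with the offset).

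The third cargo gene called at Nut 10h had far fewer reads. SLC2A3 (GLUT3), another glucose transporter, had 45.4 and 47.9 normalized counts at Nut 0h but 49.3 and 190.8 at Nut 10h, so its rise of 1.37 (SE 0.44, adjusted p = 0.03) rested on replicate 2, without which it was 0.09 (adjusted p = 0.877). Its call was also lost without either Nut 1h replicate (adjusted p = 0.0634 and 0.066). SLC2A1 was named after its values were seen.

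Of 6 tested genes of vesicle budding, the machinery that ARRDC1 engages, 1 was called higher and 2 lower at Nut 1h, and with the offset 0 higher (also 0 at an unadjusted p of at most 0.05) and 5 lower. DESeq2 and limma-voom called 1 higher and 2 lower there. The shares of all genes called were 66.9% without and 46.3% with the offset. HGS, an ESCRT subunit that sorts ubiquitinated cargo, fell by 1.15 on the log2 scale at Nut 1h (SE 0.11, adjusted p = 1.35e-06; -0.30 with the offset). At Nut 10h it was the 1 gene of the 6 called (29.0% of all tested genes were), at -0.34 (SE 0.11, adjusted p = 0.0341), and the call was lost without Nut 0h replicate 1, Nut 1h replicate 1, Nut 1h replicate 2 or Nut 10h replicate 2 (values from -0.35 to -0.19, adjusted p up to 0.322). VPS4B, an ATPase that disassembles ESCRT complexes, was higher by 0.70 at Nut 1h (SE 0.09, adjusted p = 9.84e-06), and stood at -0.04 with the offset (adjusted p = 0.675). With the offset at Nut 10h, edgeR called HGS lower at -0.35 (adjusted p = 0.000763) and VPS4B higher at 0.19 (adjusted p = 0.0408). In that fit 39.3% of all tested genes were called.

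Of 8 other genes with an arrestin or arrestin-like fold, 6 were tested, and ARRDC5 and SAG were at or near 0. At Nut 1h, 2 were called higher and 3 lower, and with the offset 1 higher and 2 lower, against a background of 66.9% and 46.3% of tested genes called. VPS26B, a retromer subunit, fell by 0.88 on the log2 scale at Nut 1h (SE 0.10, adjusted p = 3.32e-06; -0.38 with the offset). At Nut 10h, 2 were higher and 1 was lower, beside 14.1% and 14.9% of all tested genes. The beta-arrestins went opposite ways there, ARRB1 rising by 0.64 (SE 0.10, adjusted p = 0.000282) and ARRB2 falling, with a change of -0.43 (SE 0.09, adjusted p = 0.00306), both named after their values were seen. ARR3, the cone arrestin, had 3.9 and 0.9 normalized counts at Nut 0h, 11.0 and 11.3 after 1 h, and 14.5 and 7.4 after 10 h, and its changes of 2.17 and 2.14 (adjusted p = 0.0153 and 0.0337) lost their calls when Nut 0h replicate 2, Nut 1h replicate 1 or Nut 1h replicate 2 was left out, and the change at Nut 10h also without Nut 10h replicate 1. The lowest values were then 1.49 at Nut 1h and 1.47 at Nut 10h.

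Medians of the log2 fold change were taken over the tested genes of each list. For cargo these are the 6 genes reported here, and the Nut 10h median includes SLC2A3, whose rise rested on Nut 10h replicate 2. At Nut 10h the median was 0.31 for the cargo proteins, 0.03 for MondoA, ChREBP and MLX, and 0.0061 for the NEDD4 family with its adaptors. It was -0.04 for the thioredoxin system, -0.07 for vesicle budding and -0.09 for the other arrestins, beside 0.00017 over all tested genes. At Nut 1h the medians were -0.39, -0.33, 0.38, -0.02, 0.18 and -0.23 in the same order, beside 0.05. With the offset at Nut 1h they were -0.11, 0.28, -0.17, 0.04, -0.33 and -0.10, beside -0.05, so that the medians of 4 lists had the opposite sign.

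**Figure D4:**
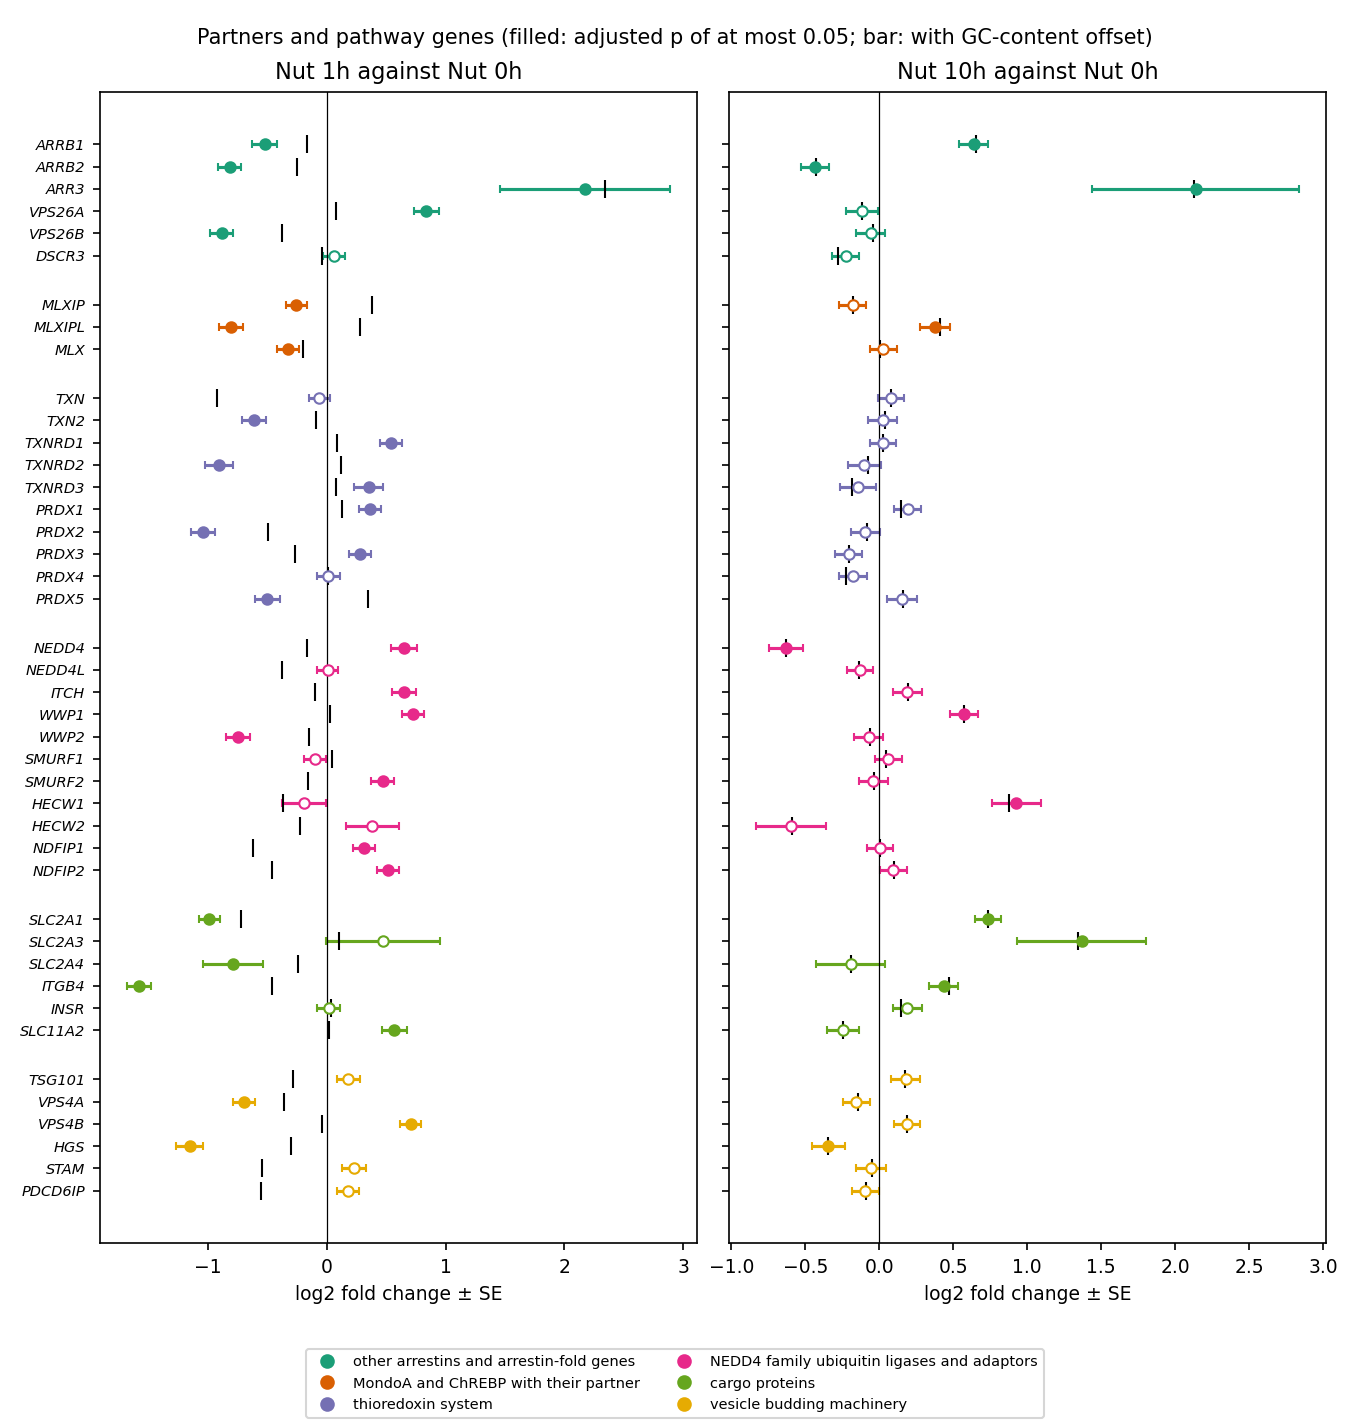
Log2 fold changes (horizontal axes, bars are SE, 2 libraries per group) of the tested partner and pathway genes at Nut 1h (left) and Nut 10h (right) against Nut 0h, coloured by list, filled where the adjusted p was at most 0.05, with a black tick for the value with the GC-content offset. At Nut 10h the ticks lie on or beside the circles and 3 of the 6 cargo genes are filled on the right of 0, whereas at Nut 1h many ticks lie far from their circles.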

How the data were processed

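RNA-seq was measured in 6 HCT116 libraries. Per the labels and the study's methods, the authors trimmed paired reads with Trim Galore 0.6.6, aligned them with STAR 2.7.0f to GRCh37.p13 and counted them per gene with featureCounts (Subread 2.0.0), and the deposited values are raw counts. The strand and multimapping settings were not given in the sources used here. A deposited table of the authors' own comparisons (fold changes and p-values from DESeq2) was read only for its pairs of gene identifier and symbol.

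Genes were filtered with filterByExpr (16565 of 57905 kept), TMM-normalized and compared on condition alone by the quasi-likelihood test of edgeR 4.0.16 (with limma 3.58.1 in R 4.3.3) over all 6 libraries, with 3 residual degrees of freedom. Benjamini-Hochberg adjustment ran over all tested genes, and an adjusted p of at most 0.05 made a call. The p-values measure the spread between these libraries, whose independence beyond the word biological is not described. Replicates differed by more than sampling noise (chi-square per degree of freedom of 4.93 to 16). RPKM values were computed from the counts with the union of exons as length. The GC-content offset was a loess curve (span 0.4), fitted per library, of the deviation from the mean library on longest-transcript GC content, which 98.1% of tested genes had, from the GENCODE annotation lifted to GRCh37. Promoters came from RefSeq (GRCh38.p14) and were placed on GRCh37 by exact match. DESeq2 1.42.0 was an alternative.

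Named genes were all members, up to 2 genes of each list with the largest change among those called against Nut 0h without overlap of the groups, the p53 targets CDKN1A and MDM2, and the 3 genes most like each called member. Members, lists and this rule were chosen with earlier results of these data known. Alternatives were other normalizations, filters, tools and designs, offsets, a minimum fold change and each library left out. A further gene of the cargo list is not reported here. Protein sequences were not analysed here. Figures were drawn with matplotlib 3.10.9.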

Additional observations from a re-analysis of the deposited data

Results flagged for a closer look

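The differences from Nut 0h were unequal at Nut 1h and Nut 10h for 3 members, by the test of Nut 10h against Nut 1h in edgeR's quasi-likelihood fit. For ARRDC1, the value at Nut 10h exceeded that at Nut 1h by 2.16 on the log2 scale, and by 1.14 with the GC-content offset, being higher in 2 of 2 Nut 10h libraries and lower in 2 of 2 Nut 1h libraries than in every control. For ARRDC2 the difference was 0.80 and for ARRDC3 it was -0.86, and with the GC-content offset both were -0.02 and no longer called. Treatment and time in culture cannot be told apart. With 2 libraries per group, the check for a library far from its group could not be made.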

How the results depend on the processing

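The 9 calls on members kept their direction and their call in all 162 values from alternatives without the GC-content offset. These were other normalizations, filters and tools, the transcript-length offset, only the 4 libraries compared, the replicate block and each library left out. A crossed replicate block, with the Nut 1h numbers exchanged and chosen after seeing the data, is also among them. The 6 calls made with the offset kept their direction and their call in all 42 values with the replicate block or with a library left out. Among these, ARRDC4 at Nut 1h ranged from 0.40 to 0.52 with single libraries left out, and its call came close to the threshold. The offset itself ended 4 calls, those of ARRDC2 and ARRDC3 at Nut 1h and in Nut 10h against Nut 1h, and added that of ARRDC4 in Nut 10h against Nut 1h. It also shrank called values, with ARRDC1 at -0.48 and ARRDC4 at 0.46 at Nut 1h, and ARRDC1 at 1.14 in Nut 10h against Nut 1h. The Nut 1h differences were 0.11 for ARRDC2 and -0.096 for ARRDC3, and those of Nut 10h against Nut 1h were -0.018 for ARRDC2, -0.020 for ARRDC3 and 0.47 for ARRDC4. With the offset and single libraries left out, an alternative chosen after seeing the data, ARRDC3 at Nut 1h ranged from -0.27 (called, adjusted p = 0.0478 by edgeR, without Nut 0h replicate 1) to 0.10, and in Nut 10h against Nut 1h ARRDC2 ranged from -0.058 to 0.044 and ARRDC3 from -0.060 to 0.096. The cause was not tested.

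At Nut 10h, ARRDC2 and ARRDC3, which were not called, changed sign with single libraries left out, with ranges of -0.044 to 0.23 and -0.34 to 0.14. With the offset, ARRDC3 ranged there from -0.29 (called, adjusted p = 0.0423 by edgeR, without Nut 0h replicate 1) to 0.084. ARRDC4 ranged from -0.12 to 0.011 in Nut 10h against Nut 1h without the offset. A minimum log2 change of 1 left 3974, 1135 and 4746 called genes at Nut 1h, at Nut 10h and between them, against 11077, 4810 and 11246. With the longest transcript as length, ARRDC1 and ARRDC2 stood at 25.3 and 11.6 RPKM at Nut 0h. By Pearson r, 0 of the 3 most similar genes were shared for ARRDC1 and for ARRDC2, and 1 each for ARRDC3 and ARRDC4.

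Among other named genes at Nut 1h, the offset turned MLXIPL to 0.28, MLXIP to 0.38, TXNRD2 to 0.12 and VPS4B to -0.039. CDKN1A, not called at Nut 1h, was -0.0029 with DESeq2, between -0.059 and 0.14 with single libraries left out, and called higher with the offset (0.69).

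The replicate numbers are shared by name only. Same-numbered deviations correlated by -0.309 (Nut 0h and Nut 1h), 0.446 (Nut 0h and Nut 10h) and -0.279 (Nut 1h and Nut 10h). The replicate block gave 10979, 4893 and 11189 called genes. With the block and the offset, ARRDC2 and ARRDC3 were 0.11 and -0.083 at Nut 1h, the differences of Nut 10h against Nut 1h were -0.019, -0.029 and 0.47 for ARRDC2, ARRDC3 and ARRDC4, and MLXIPL, MLXIP, TXNRD2 and VPS4B were 0.28, 0.38, 0.12 and -0.038 at Nut 1h. A crossed block, with the Nut 1h numbers exchanged, chosen after seeing the data, gave 7631 called genes at Nut 10h. At the depth of these libraries TXNIP had 10 counts in all, and without the low-count filter it was not called either (adjusted p from 0.203 to 1 by edgeR).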
